A study of Saccharomyces cerevisiae with 12 samples.

Results

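The transcriptome of the diploid yeast strain BY4743 grown on glycerol was compared with that of the same strain grown on glucose, both in rich medium. The glycerol side was YPG at 30°C with 2 libraries and the glucose side was YPD at 32°C with 2 libraries, so 4 of the 12 libraries of the series entered the comparison. Genes were taken when their mean scaled count over these 4 libraries was at least 10. This left 6012 of the 7127 identifiers in the table, of which 5640 matched the R64 annotation and 372 did not. In the whole series, RNA was sequenced from BY4743 in 6 environments with 2 replicates in each, to set the amount of transcription along the chromosome arms beside the rate of loss of heterozygosity. The 2 replicates of an environment were started and propagated as separate cultures. All cultures were 200 µl aliquots in titration plates without agitation and were harvested in advanced growth rather than in the stationary phase.

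BY4743 is an a/alpha diploid that lacks functional copies of *URA3*, *LEU2* and *HIS3* and is otherwise close to the reference genome. Both media were rich medium of yeast extract and peptone, with glucose as the carbon source in YPD and 3% glycerol in its place in YPG. For the YPG samples the title names YPG, while the field for the medium names YPD. The title and the growth description were followed here. The sides differed in temperature as well as in the carbon source. The effects of the carbon source and of the step from 32°C to 30°C cannot be told apart from these 4 libraries, so levels in the 2 libraries of YPD at 24°C are given beside several results. The paper gives YPG the longest time to the stationary phase among its media. Growth rate and time of harvest may therefore also have differed between the sides, and they cannot be told apart from the carbon source.

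Glucose is fermented by yeast even in the presence of oxygen, and it represses the genes for respiration and for the use of other carbon sources. Glycerol cannot be fermented by this yeast. It enters the cell through a proton symporter, is phosphorylated and oxidised to dihydroxyacetone phosphate with electrons passed to the mitochondrial respiratory chain, and from there carbon flows down to pyruvate and up to hexose phosphates by gluconeogenesis. The kinase Snf1, active when glucose is scarce, relieves repression by the zinc finger protein Mig1. It also activates Cat8 and Adr1, which switch on gluconeogenesis, the glyoxylate cycle and the use of ethanol, while the Hap2/3/4/5 complex activates genes of the respiratory chain.

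The DNA before the genes of gluconeogenesis and the glyoxylate cycle is shown first, because these genes differed most as a group between glycerol and glucose. Windows of 600 bases before the coding start were read from the RefSeq R64 sequence and searched on both strands. The letters of the carbon source response element, the site of Cat8 and Sip4, were CCNNTNNNCCG. Of the windows of all 5999 nuclear protein-coding genes, 8.73% held these letters, against 7 of the 9 windows of the gluconeogenesis and glyoxylate list. Among genes that rose by 2-fold or more in YPG, 13.9% of windows held them. In the stretches below the capitals mark this element and, where it falls in the stretch, the Mig1 box, searched as a C or G, then a C or T, then GGGG.
PCK1 upstream, chrXI:630570-630820, plus strand: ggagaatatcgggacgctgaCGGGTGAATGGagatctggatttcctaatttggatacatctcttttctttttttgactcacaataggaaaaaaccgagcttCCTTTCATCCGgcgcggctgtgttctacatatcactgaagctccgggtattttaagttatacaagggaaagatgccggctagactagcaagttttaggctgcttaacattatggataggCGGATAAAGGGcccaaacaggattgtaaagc
SFC1 upstream, chrX:609173-609312, plus strand: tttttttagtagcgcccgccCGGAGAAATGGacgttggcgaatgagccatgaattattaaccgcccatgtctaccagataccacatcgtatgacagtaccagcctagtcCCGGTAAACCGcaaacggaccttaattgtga
MLS1 upstream, chrXIV:405807-405930, plus strand: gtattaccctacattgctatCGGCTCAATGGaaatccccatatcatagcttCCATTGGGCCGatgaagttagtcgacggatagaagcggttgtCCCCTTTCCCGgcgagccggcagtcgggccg
ICL1 upstream, chrV:287282-287332, minus strand: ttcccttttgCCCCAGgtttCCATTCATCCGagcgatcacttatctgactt
IDP2 upstream, chrXII:504268-504318, plus strand: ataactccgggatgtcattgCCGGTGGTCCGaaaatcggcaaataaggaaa
MDH2 upstream, chrXV:83267-83373, minus strand: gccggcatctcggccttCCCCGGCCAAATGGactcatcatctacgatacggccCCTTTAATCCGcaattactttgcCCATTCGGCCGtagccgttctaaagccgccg
ADH2 upstream, chrXIII:874613-874663, minus strand: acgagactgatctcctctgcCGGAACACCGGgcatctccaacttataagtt
FBP1 upstream, chrXII:874965-875010, minus strand: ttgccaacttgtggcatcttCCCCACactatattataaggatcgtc

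The stretches before *PCK1*, *MLS1* and *MDH2* each hold 3 such elements, and that before *SFC1* holds 2. In *MDH2* the Mig1 box, 436 to 431 bases before the coding start, overlaps the element at 433 to 423, so the capitals run together there. The capitals of *FBP1* are a Mig1 box alone, since its window held no match to the letters of the element, and neither did the window of *JEN1*. The Mig1 box was found in 27.8% of all windows and in 7 of the 9 windows of the list. The box CCAAT bound by the Hap complex was found in 70.3% of all windows, so a match to it tells genes apart poorly. It was present in all 9 windows of the list, in 9 of 9 windows of the cytochrome bc1 complex and in 15 of 15 windows of the ATP synthase. Within *MLS1* a CCAAT on the other strand, at 498 to 494 bases, overlaps the element at 500 to 490. A match is a description of the letters in the window and not evidence that a factor was bound.

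Of the 6012 genes, 3840 (63.9%) passed an adjusted p of 0.05 in limma on log2(scaled count + 1), which was fitted on all 12 libraries so that the 6 environments shared 1 estimate of the spread. In YPG 1627 genes (27.1%) were higher and 2213 (36.8%) were lower, and 554 (9.21%) were higher and 744 (12.4%) lower by 2-fold or more. All differences below are YPG minus YPD at 32°C on this log2 scale. Their median over all genes was −0.11. Scaling by the median of ratios in place of the authors' scaling shifted this median to 0.00, by 0.11, and gave 2070 higher and 2012 lower, so the share of higher among called genes was 50.7% in place of 42.4%. Of the genes called under the authors' scaling, 3639 were called in both, each in 1 direction. Differences close to the median of all genes are therefore best read relative to it. With most genes called, a count of called genes in a list means little on its own. The counts and medians of the lists below are to be read beside these values.

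**Figure D1:**
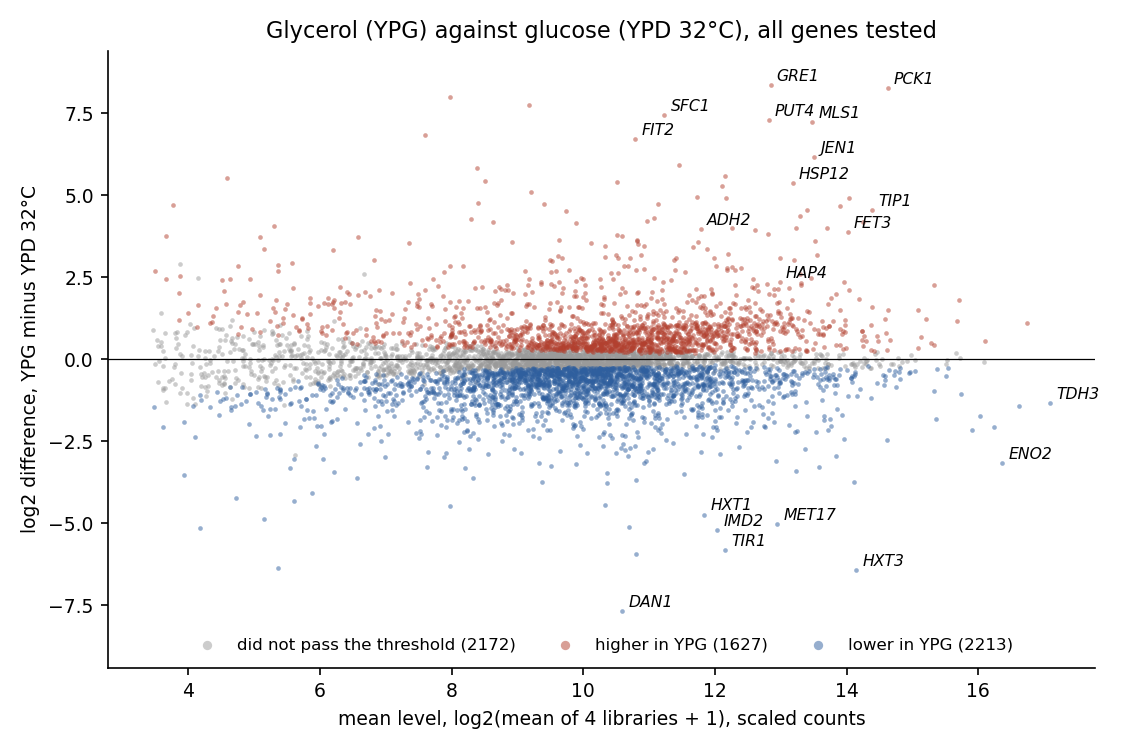
Log2 difference between YPG and YPD at 32°C (y axis) against the mean level of the gene (x axis, log2 of the mean scaled count of the 4 libraries plus 1), with 1 point for each of the 6012 genes tested. Red points (1627) were higher in YPG, blue points (2213) were lower, and grey points did not pass the threshold; *PCK1* and *JEN1* are at the top right and *HXT3* and *DAN1* at the bottom.

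The table was scaled by the authors to totals near 1.40e+07 in every library, which does not show the depth. The step between low values implied 1.238e+07 to 1.494e+07 counted fragments in the 4 libraries. The 50 genes with the highest mean over all 12 libraries of the series took 13.1% to 17.2% of the scaled counts in these 4. Pearson r between replicates, across genes, was 0.993 for YPG and 0.995 for YPD. A gene differed between replicates by a median of 0.11 on the log2 scale in YPG and by 0.10 in YPD. The 8 protein-coding genes of the mitochondrial genome were at 6.37 or less in every one of the 4 libraries and were not tested. Of the mitochondrial ribosomal RNAs, which were tested, 21S_RRNA was at 77.9 and 62.3 in YPG and 9.72 and 10.3 in YPD (2.68), and 15S_RRNA was at 24.2 and 20.4 against 3.89 and 5.63 (2.03). *URA3* and *LEU2* were listed at 0 throughout, while *HIS3*, of which the BY strains carry a partial deletion, was at 845 and 812 in YPG and 2537 and 2612 in YPD. Very short genes such as *RPL41A* and *RPL41B* were also listed at 0, and an entry of 0 is therefore not read as absence of the message. The difference between the replicates of YPG was related to gene length, with a Spearman correlation of 0.352 across 5617 genes, against 0.139 for the replicates of YPD at 32°C and 0.095 for the difference between the media. Genes are not independent replicates, and no test is attached to these correlations. The part of gene length in the results for lists of short genes was not tested.

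The genes that take up and break down glycerol rose in 4 of 7 cases and fell in 2. *STL1*, the glycerol proton symporter, was at 1330 and 1613 in YPG and at 195 and 149 in YPD at 32°C. The YPG libraries lay far above both glucose libraries, and YPD at 24°C, at 163 and 196, was as low as YPD at 32°C. The difference was 3.09 (SE 0.16, adjusted p 1.8e-10). *GUT2*, the mitochondrial glycerol-3-phosphate dehydrogenase, was at 2897 and 2940 against 914 and 989 (1.62, SE 0.09, adjusted p 5.1e-10). The glycerol kinase *GUT1* rose less, from 1987 and 1882 in YPD to 2817 and 3234 in YPG (0.64, SE 0.09). *GCY1*, of the alternative route through dihydroxyacetone, rose by 0.56 on the log2 scale, whereas the dihydroxyacetone kinases of that route fell, *DAK1* to −0.96 and *DAK2* to −3.42. *DAK2* was low everywhere, at 5.49 and 22.7 in YPG and 147 and 118 in YPD. The glycerol channel *FPS1* was at 3193 and 3133 in YPG and 3166 and 2993 in YPD, and the groups overlapped.

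Of the 4 genes of glycerol synthesis, the glycerol-3-phosphate dehydrogenases *GPD1* and *GPD2* fell, with differences of −1.83 and −0.95. The phosphatase gene *GPP2* rose by 0.95 on the log2 scale, from 4772 and 4264 to 8841 and 8620, and its levels in YPD at 24°C were far lower, at 948 and 1001. Its paralog *GPP1* was at 11431 and 11390 in YPG and 10723 and 13028 in YPD, with overlapping groups. In YPD at 24°C *GPP1* was higher than in either, at 18057 and 18949.

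All 9 genes of gluconeogenesis and the glyoxylate cycle were higher in YPG, with a median difference of 4.73 and a range from 0.29 to 8.26. *PCK1*, phosphoenolpyruvate carboxykinase and the committed step of gluconeogenesis, was at 52320 and 48440 in YPG and at 165 and 162 in YPD at 32°C. It was among the most strongly changed genes of the comparison, with a ratio of means of 308 and a difference of 8.26 (SE 0.11, adjusted p 1.0e-16). Its levels in YPD at 24°C were 57.5 and 65.0, lower than in YPD at 32°C. *FBP1*, fructose-1,6-bisphosphatase, was at 6659 and 6501 against 240 and 186 (4.95, SE 0.15, adjusted p 4.6e-13). Both enzymes serve only the upward direction of the pathway, and in neither did the YPG libraries come near those of YPD at 32°C. High *PCK1* was not particular to glycerol in the series. In synthetic medium with added NaCl and no glycerol it was at 72849 and 76063, above YPG.

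The glyoxylate cycle, which makes C4 acids from acetyl units, moved with them. Malate synthase, *MLS1*, was at 21849 and 23569 in YPG and 168 and 131 in YPD (7.24, SE 0.14, adjusted p 3.7e-15). Isocitrate lyase, *ICL1*, was at 17704 and 18435 against 1139 and 1096 (4.01, SE 0.11, adjusted p 1.3e-13). The basal level of *ICL1* on glucose was thus well above that of *MLS1* in scaled counts, and its difference was the smaller of the pair. *SFC1*, the mitochondrial succinate-fumarate carrier, rose from 36.0 and 19.7 to 4537 and 5016 (7.43, SE 0.27). Its YPD libraries were near the bottom of the range, and those of YPD at 24°C, at 6.94 and 6.0, were lower still. *IDP2*, cytosolic isocitrate dehydrogenase, and *MDH2*, cytosolic malate dehydrogenase, differed by 4.73 and 3.58. The pyruvate carboxylases stood apart from each other: *PYC1* rose by 2.49 on the log2 scale, from 3612 and 3164 to 19864 and 18265, and *PYC2* by 0.29, from 6843 and 6885 to 8706 and 8072. Summed over the list, these genes took 1.01% and 0.995% of the scaled counts in YPG, 0.0919% and 0.0881% in YPD at 32°C and 0.0634% and 0.0633% in YPD at 24°C.

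**Figure D2:**
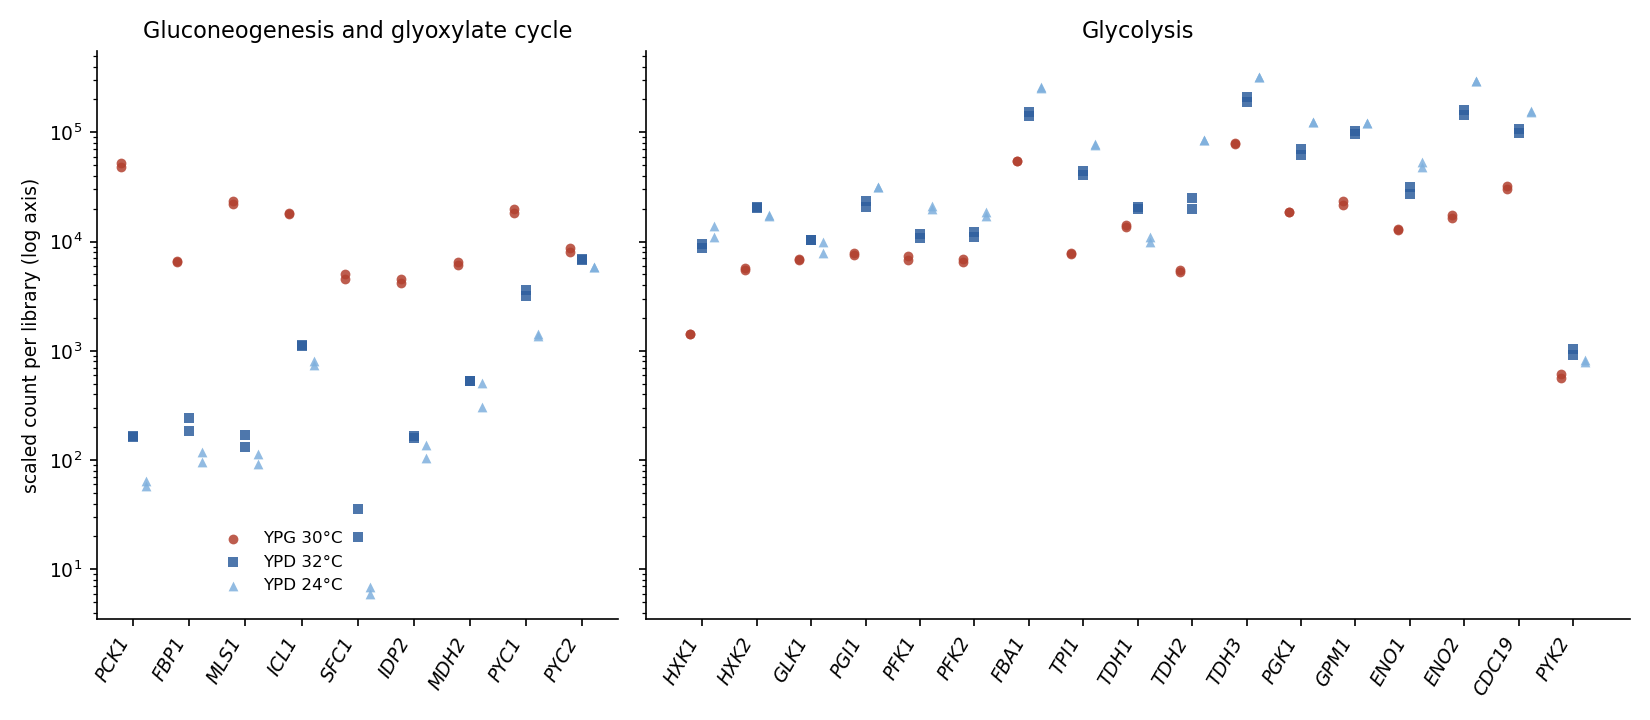
Scaled count per library (log axis) for the genes of gluconeogenesis and the glyoxylate cycle (left) and of glycolysis (right), with 2 libraries each of YPG at 30°C (red circles), YPD at 32°C (blue squares) and YPD at 24°C (light blue triangles). In the left panel every YPG point lies above the glucose points of its gene, by most in *PCK1* (52320 and 48440 against 165 and 162), and in the right panel the YPG points lie below those of YPD at 32°C.

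Among genes for the use of ethanol, acetate and lactate, 7 of 9 rose and 2 fell. *JEN1*, the lactate and pyruvate permease, was at 22439 and 23588 in YPG and 350 and 295 in YPD at 32°C (6.16, SE 0.11, adjusted p 2.3e-15). *ADH2*, the alcohol dehydrogenase that oxidises ethanol, was at 6264 and 7027 against 434 and 403 (3.98, SE 0.18). Both genes were therefore strongly expressed in a medium to which neither lactate nor ethanol had been added. *ADY2*, an acetate transporter, rose by 2.84 on the log2 scale, *ACS1*, acetyl-CoA synthetase, by 2.01, and the D-lactate dehydrogenase *DLD1* by 2.26. *DLD3*, a cytosolic D-lactate dehydrogenase, went the other way, from 20646 and 16346 in YPD to 2946 and 2553 in YPG (−2.74, SE 0.11), and in YPD at 24°C it was at 4420 and 4457, between YPG and YPD at 32°C. *ALD6*, cytosolic aldehyde dehydrogenase, was at 31972 and 45328 in YPG and 53669 and 55175 in YPD, and its difference of −0.52 lost the call without YPG replicate 1 (−0.26, adjusted p 0.086).

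The entry of pyruvate into the TCA cycle was lower for 6 of 8 genes. *PDA1*, *PDB1*, *LAT1* and *PDX1*, subunits of the pyruvate dehydrogenase complex, differed by −0.63, −0.65, −0.71 and −0.55. *LPD1*, a subunit that this complex shares with 2-oxoglutarate dehydrogenase, rose by 0.32 on the log2 scale. Among the subunits of the mitochondrial pyruvate carrier, *MPC2* was at 2434 and 2894 in YPG and 6292 and 5240 in YPD at 32°C (−1.11, SE 0.11), while *MPC3* rose from 151 and 98.5 to 490 and 661 (2.21, SE 0.21). In yeast, *MPC2* is the carrier subunit of fermentative growth and *MPC3* that of respiratory growth. Of the 8 genes, 3 were higher and 2 lower with YPD at 24°C as the glucose side, with a median of −0.13 in place of −0.64. The direction of *MPC2* also depended on the glucose side, since at 24°C in YPD it was at 2066 and 2013, below YPG.

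In the TCA cycle 15 of 16 genes rose, with a median of 1.62. The genes of succinate dehydrogenase, which is both a TCA enzyme and a complex of the respiratory chain, rose most. *SDH2*, the iron-sulfur subunit, was at 8188 and 8007 in YPG and 1271 and 1164 in YPD (2.73, SE 0.09, adjusted p 8.6e-13), and *SDH1*, the flavoprotein subunit, was at 10476 and 10297 against 1926 and 1869 (2.45, SE 0.09). *MDH1*, mitochondrial malate dehydrogenase, *ACO1*, aconitase, and *KGD1*, of 2-oxoglutarate dehydrogenase, differed by 2.17, 1.86 and 1.58. The cycle was not raised evenly. *CIT1*, citrate synthase, rose by only 0.76 on the log2 scale, and of the subunits of succinyl-CoA ligase *LSC2* rose by 0.52 while *LSC1* was at 2708 and 2844 in YPG and 3139 and 3031 in YPD (−0.15, adjusted p 0.11). *CIT3*, a minor citrate synthase, passed the threshold at 0.48 but lost the call without YPD replicate 2 (0.26, adjusted p 0.27) and without YPG replicate 2 (0.30, adjusted p 0.22).

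The respiratory chain rose almost as a block. Of the NADH dehydrogenases that feed it, *NDE1*, which faces the cytosol, was at 25718 and 24644 in YPG and 1325 and 1836 in YPD (4.01, SE 0.12, adjusted p 5.1e-13). Its paralog *NDE2* and the internal enzyme *NDI1* differed by 2.2 and 2.13. All 9 genes of the cytochrome bc1 complex were higher, from 1.02 for *QCR9* to 2.21 for *QCR10*, with a median of 1.94. Among the core subunits *COR1* was at 12593 and 12429 against 2882 and 2778, *QCR2* at 11746 and 12397 against 3012 and 3245, and the Rieske protein *RIP1* at 2559 and 2500 against 534 and 587. In none of them did the groups overlap, and the YPD libraries at 24°C, at 3511 and 3788 for *COR1*, lay with the glucose libraries at 32°C. All 15 nuclear genes of the ATP synthase were higher as well, within the narrow range of 1.3 to 2.45 and with a median of 1.82, and *ATP1* and *ATP2*, the alpha and beta subunits, differed by 1.67 and 1.83. *ATP15* was at 57.1 and 70.2 against 14.6 and 31.0 and lost the call without YPD replicate 1 (1.01, adjusted p 0.080).

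Of the 9 nuclear genes of cytochrome c oxidase, 7 rose and 1 fell. *COX4*, *COX6* and *COX13* differed by 2.06, 1.46 and 1.83. *COX9*, with values of 20.9 and 37.4 against 14.6 and 23.4, did not pass the threshold (0.57, adjusted p 0.32), and *COX7*, as low, lost the call without YPD replicate 1 (1.10, adjusted p 0.056). The gene that fell was *COX5B*, the form of subunit 5 used at low oxygen. Per transcript length, *COX5A*, the form used in air, was at 564 and 615 FPKM in YPG and 106 and 125 FPKM in YPD, and *COX5B* was at 56.5 and 61.3 FPKM in YPG and 321 and 291 FPKM in YPD. The order of the pair was therefore opposite in the media, with *COX5A* the more abundant form on glycerol and *COX5B* on glucose. The differences were 2.35 (SE 0.10) for *COX5A* and −2.37 (SE 0.10) for *COX5B*. In cytochrome c itself, *CYC1* rose by 2.05 on the log2 scale, and *CYC7*, the low-oxygen form, was at 96.6 and 123 in YPG and 110 and 74.1 in YPD, with overlapping groups.

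The mitochondrial ADP/ATP carriers split in the same manner as subunit 5. *PET9*, the major carrier, was at 1174 and 1243 FPKM in YPG and 227 and 259 FPKM in YPD. *AAC1* was at 193 and 196 FPKM against 21.9 and 23.9 FPKM. *AAC3*, the form of anaerobic growth, was at 6.67 and 6.79 FPKM against 91.7 and 89.9 FPKM. On the log2 scale of the scaled counts these carriers differed by 2.32, 3.09 and −3.74 (SE 0.11, 0.10 and 0.35), and in none of them did the groups overlap.

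**Figure D3:**
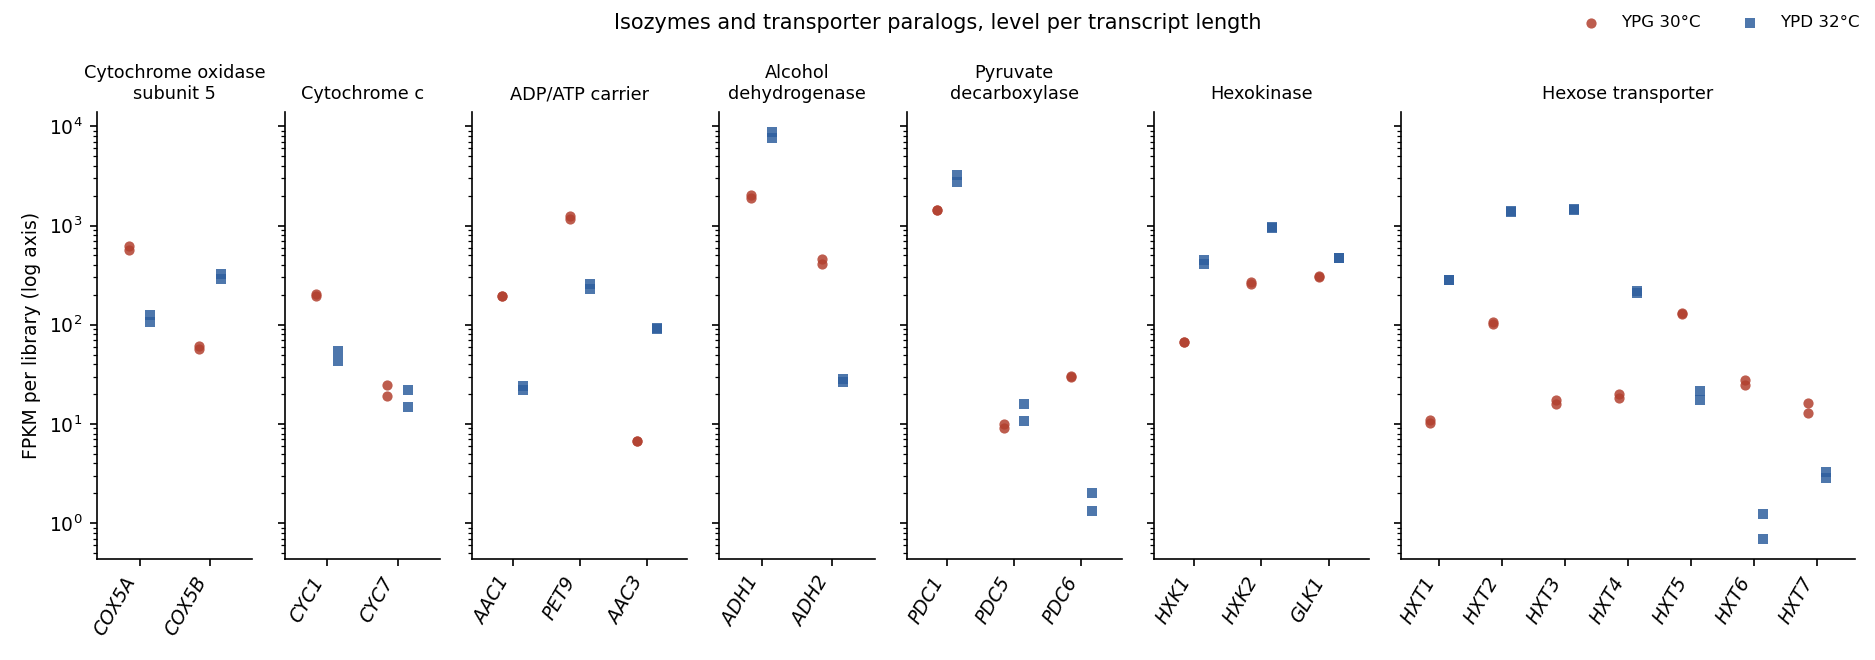
FPKM per library (log axis) of genes for related proteins, with 2 libraries of YPG at 30°C (red circles) and 2 of YPD at 32°C (blue squares) for each gene. *COX5A* and *COX5B* exchange order between the media, as do *AAC1* and *AAC3*, and *HXT3* and *HXT5*, whereas *ADH1* stays above *ADH2* in both.

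Not every mitochondrial function was higher. Of 11 genes of ubiquinone synthesis, which makes the mobile electron carrier of the chain, none rose and 9 fell, with a median of −1.07. *COQ1* was at 370 and 425 in YPG and 1174 and 1118 in YPD (−1.53, SE 0.11), and *COQ6* and *COQ3* differed by −1.51 and −1.37. With the median-of-ratios scaling 7 fell, since *COQ9* (−0.36) and *COQ10* (−0.39) lost the call, as they also did when single libraries of either side were left out, and with YPD at 24°C as the glucose side 6 fell and 1 rose. Among 14 carriers and porins, 6 rose and 7 fell, with a median of −0.26, or 7 and 5 with YPD at 24°C as the glucose side. The phosphate carrier *MIR1* (2.17), the citrate carrier *CTP1* (2.71) and the oxodicarboxylate carrier *ODC1* (2.12) rose. The dicarboxylate carrier *DIC1*, the oxaloacetate carrier *OAC1* and the GTP/GDP carrier *GGC1* fell, with −1.32, −1.32 and −1.01.

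The proteins of the mitochondrial ribosome, which translates the subunits encoded in the mitochondrial genome, did not rise with the respiratory chain. Of 66 nuclear genes 3 were higher, 29 lower and 34 did not pass the threshold, with a median of −0.29, where 36.8% of all genes were lower. The lowest were *MRP10* (−1.01), *MRPL49* (−0.94), *MRP2* (−0.87) and *MRPL31* (−0.84), and *MRPL4* was the highest (0.84). The count of lower genes rested on single libraries, being 11 without YPG replicate 1, 15 without YPD replicate 2 and 22 without YPD replicate 1. With YPD at 24°C as the glucose side, 16 were higher and 7 lower, with a median of 0.11. The genes are short, with a median length of 706.5 bases against 1263 over all protein-coding genes tested.

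All 17 genes of glycolysis were lower in YPG, with a median of −1.51 and a range of −3.16 to −0.56. *ENO2*, the enolase of growth on glucose, was at 17367 and 16537 in YPG and 144189 and 159532 in YPD at 32°C (−3.16, SE 0.12, adjusted p 1.0e-11). *ENO1* differed by −1.18, so that per transcript length the forms were close in YPG, at 680 and 670 FPKM for *ENO1* and 904 and 861 FPKM for *ENO2*. In YPD *ENO2* was at 7508 and 8307 FPKM and *ENO1* at 1429 and 1647 FPKM. *HXK1*, *TPI1* and *GPM1*, which encode a hexokinase, triosephosphate isomerase and phosphoglycerate mutase, differed by −2.67, −2.46 and −2.15. *TDH3*, the main glyceraldehyde-3-phosphate dehydrogenase, was at 79006 and 78726 against 188268 and 212397 (−1.34, SE 0.12) and remained among the most abundant messages of YPG. The smallest differences were those of *TDH1* (−0.56), glucokinase *GLK1* (−0.61) and the phosphofructokinase genes *PFK1* and *PFK2* (−0.66 and −0.78). *TDH2* and *TDH3*, and *ENO1* and *ENO2*, are near-identical copies between which the counting may have split reads.

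The sum over the glycolytic genes was 2.13% of the scaled counts in both YPG libraries, 6.55% and 7.26% in YPD at 32°C and 11.6% in both libraries of YPD at 24°C. The glucose sides thus differed from each other by a sizeable part of the difference between the media, and 16 of the 17 genes were as low or lower in YPG against either of them. The exception was *TDH1*, at 13506 and 14127 in YPG, 19865 and 20832 in YPD at 32°C and 10004 and 10972 in YPD at 24°C.

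In fermentation, *PDC1*, the main pyruvate decarboxylase, was at 35406 and 35398 in YPG and 68224 and 79888 in YPD (−1.06, SE 0.12). *ADH1*, which reduces acetaldehyde to ethanol, was at 31053 and 29062 against 115943 and 134626 (−2.06, SE 0.13, adjusted p 3.2e-09). *ADH1* and *ADH2* moved in opposite directions, yet *ADH1* stayed the more abundant, at 2029 and 1899 FPKM in YPG against 409 and 459 FPKM for *ADH2*. *PDC6*, a minor pyruvate decarboxylase, rose from 49.6 and 32.8 to 732 and 760 (4.17, SE 0.21). The mitochondrial *ADH3* was at 10335 and 10294 in YPG and 10718 and 11091 in YPD and did not pass the threshold (−0.08, adjusted p 0.41). Reads of the similar genes *ADH1* and *ADH2* may have been shared between them.

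Hexose transporters exchanged places. *HXT3*, a transporter of low affinity, was at 396 and 432 in YPG and 35527 and 36200 in YPD at 32°C, a ratio of means of 86.6 in favour of glucose (−6.43, SE 0.13, adjusted p 5.9e-15). *HXT1*, *HXT2* and *HXT4* differed by −4.73, −3.74 and −3.48. The levels of *HXT1* depended on the temperature of the glucose side, with 7151 and 6990 at 32°C and 858 and 963 at 24°C, and both were above the 254 and 278 of YPG. *HXT5*, a transporter of slow growth, rose from 554 and 458 to 3432 and 3355 (2.75, SE 0.10). It was the most abundant hexose transporter of YPG per transcript length, at 132 and 129 FPKM, followed by *HXT2* at 102 and 105 FPKM. The high-affinity pair *HXT6* and *HXT7* differed by 4.75 and 2.23, but these genes are near-identical copies whose separate values are uncertain, and *HXT7* was at 365 and 395 in YPD at 24°C, within the range of its 407 and 325 in YPG.

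Of the sensors, *SNF3*, the sensor of low glucose, rose by 0.52 on the log2 scale, and *RGT2*, the sensor of high glucose, was at 833 and 919 against 917 and 798. The co-repressor gene *STD1* fell from 1141 and 1177 to 116 and 142 (−3.16, SE 0.15), and its paralog *MTH1* differed by −0.65. In all, 5 of the 19 tested genes of this list rose and 8 fell, with a median of −0.39. With YPD at 24°C as the glucose side 6 rose and 6 fell. The list took 0.0849% and 0.0832% of the scaled counts in YPG against 0.615% and 0.628% in YPD. The Mig1 box was found in 17 of the 21 windows of this list, against 27.8% of all windows.

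Of 26 regulators of the carbon source response 20 passed the threshold (10 higher and 10 lower), where 63.9% of all genes did. Their median was −0.05, and with the median-of-ratios scaling 12 were higher and 8 lower. *HAP4*, the activating subunit of the Hap complex, was at 13329 and 13714 in YPG and 2301 and 3086 in YPD (2.34, SE 0.15, adjusted p 3.0e-09). Of the DNA-binding subunits *HAP3* rose by 0.85, *HAP5* differed by −0.55, and *HAP2* was at 336 and 349 against 402 and 335. *ADR1* rose by 1.56 and *CAT8* by 0.82 on the log2 scale. *SIP4*, which binds the same element as Cat8, was at 416 and 385 against 253 and 203 (0.82), and was far lower in YPD at 24°C, at 18.8 and 21. The Mig repressors fell, *MIG1* from 3087 and 3169 to 1638 and 1398 (−1.05, SE 0.12), and *MIG2* and *MIG3* further, with −3.78 and −2.33. Of the Snf1 kinase, the catalytic subunit gene *SNF1* was at 1744 and 1723 against 1884 and 1825 and did not pass the threshold (adjusted p 0.40). Its beta subunits went apart, *SIP2* rising by 1.00 and *GAL83* falling by 1.24 on the log2 scale.

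**Figure D4:**
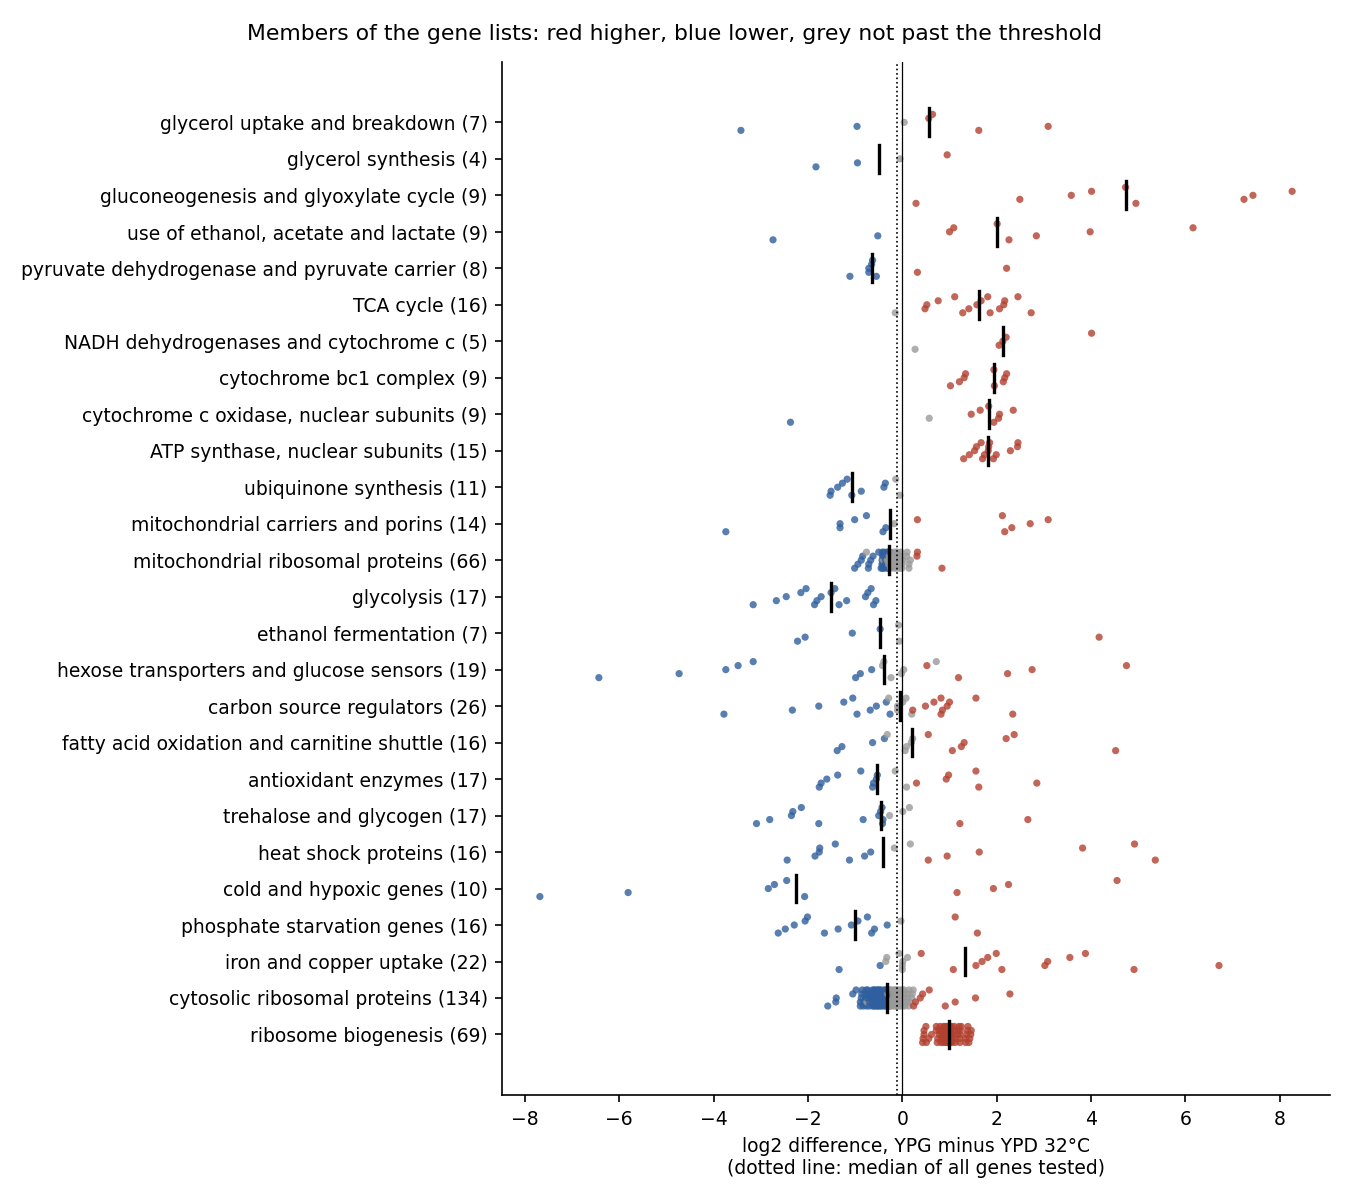
Log2 difference between YPG and YPD at 32°C for each tested member of the gene lists (numbers of members in parentheses), with red points higher, blue points lower and grey points not past the threshold. Black bars are the medians of the lists and the dotted line is the median of all genes tested (−0.11); the lists of gluconeogenesis, the bc1 complex, the ATP synthase and ribosome biogenesis lie wholly to the right and glycolysis wholly to the left.

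Fatty acid oxidation was mixed, with 7 of 16 genes higher and 4 lower. The genes of the carnitine shuttle, which carries acetyl units between compartments, were higher. *CRC1*, the mitochondrial carnitine carrier, had the largest rise of the list and was at 1572 and 1700 against 80.7 and 61.0 (4.52, SE 0.18), and the carnitine acetyltransferases *YAT1*, *YAT2* and *CAT2* rose by 2.2, 1.31 and 0.55 on the log2 scale. Of the peroxisomal beta-oxidation genes, *POT1*, the thiolase, rose by 2.37, *POX1*, the acyl-CoA oxidase, was at 160 and 159 against 169 and 132, and the fatty acid transporters *PXA1* and *PXA2* fell, with −1.28 and −1.38. *FOX2*, the second enzyme of the pathway, passed the threshold at −0.38 but lost the call without YPG replicate 1 (−0.16, adjusted p 0.36) and without YPD replicate 1 (−0.26, adjusted p 0.21). With YPD at 24°C as the glucose side 11 genes of this list were higher and 2 lower, with a median of 0.79 in place of 0.21.

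Antioxidant enzymes were mixed, with 6 of 17 higher and 9 lower. *CTT1*, the cytosolic catalase, was at 2538 and 2977 in YPG and 383 and 378 in YPD (2.85, SE 0.11). The mitochondrial superoxide dismutase *SOD2* and the mitochondrial peroxiredoxin *PRX1* rose by 0.98 and 1.56 on the log2 scale. The cytosolic peroxiredoxin *TSA1* fell from 16392 and 16658 to 4907 and 5112 (−1.72, SE 0.08), and the thioredoxins *TRX1* and *TRX2* differed by −1.76 and −0.88. With YPD at 24°C as the glucose side, 9 of the list were higher and 5 lower, with a median of 0.44 in place of −0.53.

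Genes of the reserve carbohydrates trehalose and glycogen were mostly lower, 12 of 17 against 2 higher, with a median of −0.46. The subunits of trehalose synthase, *TPS1*, *TPS2*, *TPS3* and *TSL1*, differed by −2.81, −2.14, −2.35 and −3.09, and *TPS1* was at 804 and 967 in YPG and 6171 in both YPD libraries. *GSY1*, glycogen synthase, and *UGP1*, which makes UDP-glucose, differed by −2.32 and −1.77. Those that rose were *GPH1*, glycogen phosphorylase (1.22), and *GAC1*, a phosphatase subunit that acts on glycogen synthase (2.66).

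The heat shock proteins did not move together. Genes of small heat shock proteins differed in direction. *HSP12* was at 15861 and 20429 against 494 and 386 (5.36, SE 0.13, adjusted p 3.3e-14) and *HSP26* at 31622 and 33702 against 1329 and 878 (4.92, SE 0.17). *HSP42* was lower, at 854 and 1093 against 1722 and 1372 (−0.67, SE 0.18), and lost the call without YPD replicate 1 (−0.51, adjusted p 0.060) and without YPG replicate 1 (−0.49, adjusted p 0.071). *HSP12* was at 3289 and 4236 FPKM in YPG, among the 10 most abundant messages there. Of the Hsp70 genes *SSA3* rose by 3.82 while *SSA2* differed by −2.44, and *SSA1* did not pass the threshold. The disaggregase *HSP104*, its mitochondrial counterpart *HSP78* and the Hsp90 gene *HSP82* fell, with −1.42, −1.85 and −1.76. In all 6 of the 16 genes rose and 8 fell, with a median of −0.42. In YPD at 24°C *HSP12* was at 194 and 179 and *HSP104* at 10274 and 14405. Copies such as *SSA1* and *SSA2*, or *HSP82* and *HSC82*, may share reads.

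Genes known from cold and from low oxygen were listed together because many of them respond to both. In YPG 4 of the 10 rose and 6 fell, with a median of −2.26. *DAN1*, a cell wall protein of anaerobic growth, was at 12.1 and 15.9 in YPG and 3371 and 2759 in YPD at 32°C (−7.68, SE 0.21, adjusted p 1.7e-13), and it was at 1820 and 1980 in YPD at 24°C. The related wall protein *TIR1* was at 180 and 135 against 10681 and 7195 (−5.81, SE 0.17). *TIP1*, a wall protein of the same family, did the opposite, at 42735 and 39808 in YPG against 1860 and 1664 (4.55, SE 0.09). *ANB1*, the low-oxygen form of translation factor eIF5A, and *HEM13*, of heme synthesis, fell with −2.45 and −2.07. The paralog of *ANB1*, *HYP2*, was listed at 8.11e-06 and 8.16e-06 FPKM in YPG and 5.05e-06 and 4.95e-06 FPKM in YPD. The separate values of this pair are therefore uncertain. *ROX1*, which encodes the heme-dependent repressor of low-oxygen genes, was at 15452 and 17940 against 3275 and 3763 (2.25, SE 0.11). The fatty acid desaturase *OLE1* rose by 1.16 on the log2 scale.

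A search for the Rox1 consensus, which allows several letters at some positions and was added after the values were seen, found it in 12.3% of all windows and in 7 of the 10 windows of this list. The stretches before *ANB1*, *HEM13* and *AAC3* are shown, with the consensus in capitals.
ANB1 upstream, chrX:525569-525716, minus strand: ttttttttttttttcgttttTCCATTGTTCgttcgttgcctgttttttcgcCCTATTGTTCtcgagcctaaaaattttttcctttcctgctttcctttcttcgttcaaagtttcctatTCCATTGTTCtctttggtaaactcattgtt
HEM13 upstream, chrIV:546437-546486, plus strand: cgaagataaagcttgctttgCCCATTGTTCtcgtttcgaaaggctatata
AAC3 upstream, chrII:415766-415815, plus strand: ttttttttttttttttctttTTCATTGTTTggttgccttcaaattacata
The window of *ANB1* held 3 matches, at 315 to 306, 284 to 275 and 217 to 208 bases before the coding start. That of *HEM13* held a further match at 474 to 465 bases, outside the stretch shown. Among genes that fell by 2-fold or more in YPG, 13.8% of windows held a match, close to the share of all windows.

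Of 22 genes for the uptake of iron and copper 13 rose and 2 fell, with a median of 1.32, and the largest rises were those of iron uptake genes. *FET3*, the multicopper oxidase of high-affinity iron uptake, was at 31974 and 30061 in YPG and 1845 and 2417 in YPD (3.88, SE 0.13), and its partner permease *FTR1* was at 16260 and 17326 against 1813 and 2369 (3.02, SE 0.16). The glucose libraries at 24°C were intermediate, at 5746 and 5735 for *FET3* and 6871 and 6693 for *FTR1*. The siderophore transporters *SIT1* and *ARN1* differed by 4.91 and 3.08, and the wall mannoproteins *FIT2* and *FIT3* by 6.71 and 3.55. *TIS11*, which promotes decay of messages when iron is short, rose by 1.99 on the log2 scale. The copper transporters *CTR1* and *CTR3* overlapped between the groups, at 667 and 797 against 750 and 786, and at 97.7 and 104 against 104 and 97.5. The siderophore transporter *ENB1* fell by 1.34 on the log2 scale. The list took 0.567% and 0.566% of the scaled counts in YPG and 0.0939% and 0.104% in YPD at 32°C. High levels of this list were not particular to glycerol in the series. In synthetic medium at 30°C without glycerol or added NaCl the list took 0.560% and 0.656%. *FIT2* was at 10327 and 15308 there, above its 3190 and 3823 in YPG.

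Genes of phosphate starvation were lower in 13 of 16 cases, with a median of −1.01. *SPL2*, a regulator of phosphate transport, was at 269 and 449 in YPG and 2079 and 2225 in YPD (−2.63, SE 0.31). The acid phosphatase genes *PHO11* and *PHO12*, which are near-identical copies, differed by −2.01 and −2.48, the vacuolar phosphatase *PHO8* by −2.06, and the polyphosphate polymerase subunits *VTC1*, *VTC2*, *VTC3* and *VTC4* by −1.36, −0.94, −1.65 and −1.08. The high-affinity transporter *PHO84* was at 23800 and 22366 against 34324 and 34918 (−0.59). *PHO89*, its sodium-coupled counterpart, fell against YPD at 32°C (−0.74) but was at 2849 and 3142 in YPD at 24°C, below the 7682 and 7067 of YPG. Those that rose were *PHM7* and *PHM8* (1.12 and 1.59).

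The parts of the ribosome and the factors that assemble it moved apart. All 69 genes of ribosome biogenesis were higher in YPG, with a median of 0.99 and a narrow range of 0.43 to 1.46. *UTP10*, of the small-subunit processome, was at 12325 and 11146 against 4186 and 4307 (1.46, SE 0.11), and *ENP2*, *NOP7* and *RRP5* differed by 1.45, 1.43 and 1.41. The smallest rise was that of *NHP2*, from 4073 and 4062 to 5098 and 5924. Each of the 69 also rose with the median-of-ratios scaling and with YPD at 24°C as the glucose side, with medians of 1.10 and 1.21.

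Of 134 tested genes for cytosolic ribosomal proteins, 72 were lower, 9 higher and 53 did not pass the threshold, with a median of −0.33. With the median-of-ratios scaling 58 were lower and 15 higher. The largest falls were those of *RPS29A* (−1.58), *RPL29* (−1.41), *RPS28A* (−1.40) and *RPL37B* (−1.05), and *RPS29A* lost the call without YPG replicate 2 (−1.25, adjusted p 0.051). Those that rose against the majority were led by single copies of duplicated genes. *RPL7B* was at 11633 and 11914 in YPG and 2173 and 2691 in YPD (2.28, SE 0.10, adjusted p 4.6e-11), *RPS9A* at 6728 and 7604 against 2217 and 2689 (1.55), *RPL9B* at 10349 and 10716 against 4461 and 5232 (1.12) and *RPL8A* at 19616 and 20272 against 9775 and 11513 (0.91). *RPS7B* and *RPL4B* also rose, by 0.57 and 0.43 on the log2 scale. The call of *RPL15B* was lost without YPG replicate 2 (0.29, adjusted p 0.11) and without YPD replicate 2 (0.36, adjusted p 0.066), and that of *RPL11B* without YPG replicate 2 (0.17, adjusted p 0.18) and without YPD replicate 1 (0.20, adjusted p 0.15). That of *RPL1A* was lost without YPD replicate 1 (0.18, adjusted p 0.24) and without either YPG replicate. Paralogs of ribosomal proteins share much of their sequence, and their separate values are uncertain. The ribosomal protein genes took 12.2% and 12.9% of the scaled counts in YPG, 14.7% and 15.6% in YPD at 32°C and 16.7% and 16.4% in YPD at 24°C, while biogenesis took 4.07% and 4.0%, 2.05% and 1.98%, and 1.87% and 1.84%. Genes of the former list are short, with a median of 783 bases, and those of the latter long, with a median of 1563 bases.

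**Figure D5:**
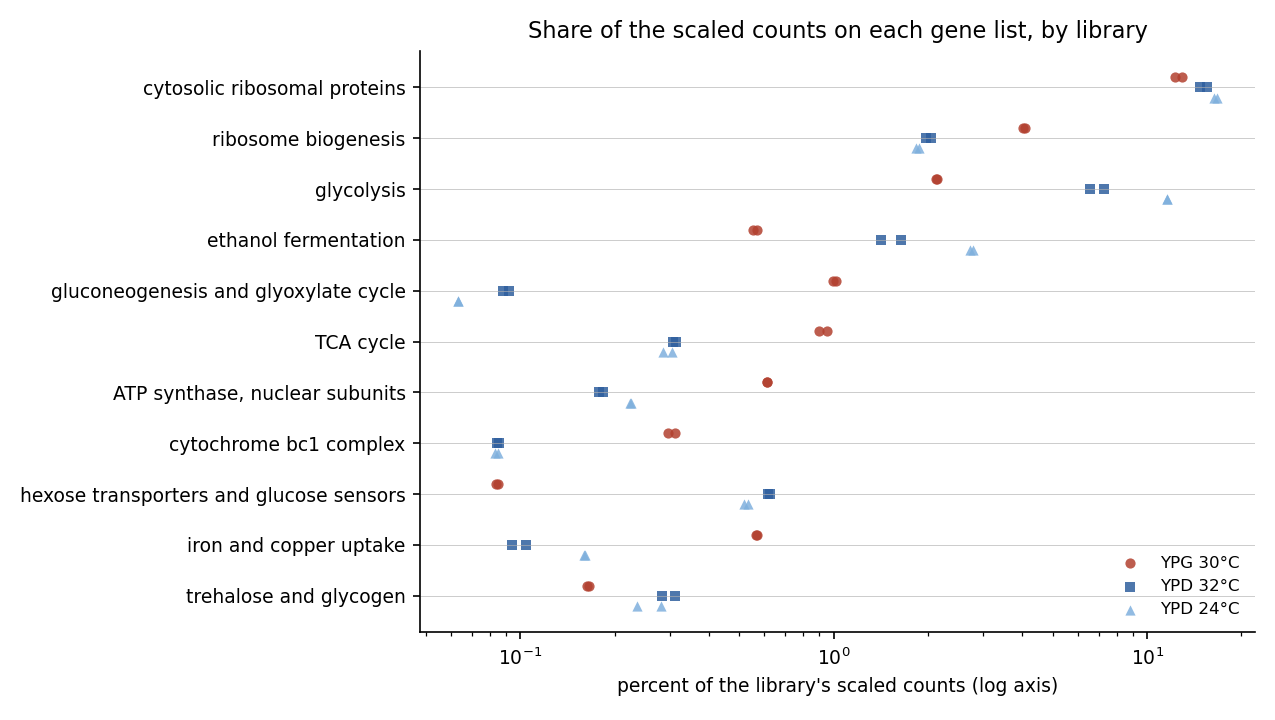
Percent of each library's scaled counts (log axis) on selected gene lists, with 2 libraries each of YPG at 30°C (red circles), YPD at 32°C (blue squares) and YPD at 24°C (light blue triangles). Glycolysis falls from 11.6% at 24°C and 6.55% to 7.26% at 32°C in YPD to 2.13% in YPG, while ribosome biogenesis and the respiratory lists are higher in YPG than in either glucose group.

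Genes outside the lists stood beside those named above among the 10 largest differences in each direction. *GRE1*, a hydrophilin of stress, had the largest rise, from 44.7 and 43.1 in YPD to 14395 and 14943 in YPG (8.35, SE 0.19, adjusted p 2.9e-14), and *SIP18*, a similar small hydrophilic protein, rose from 4.86 and 3.75 to 1006 and 1295 (7.76, SE 0.33). *PUT4*, the proline permease, was at 14391 and 14329 against 83.6 and 98.5 (7.29, SE 0.12). *DPA10* was at 468 and 535 in YPG and at 0 and 2.81 in YPD, and *ANS1* was at 364 and 401 against 4.86 and 0.938. Of the 10 largest rises, all but *ANS1* were higher still in synthetic medium with added NaCl and no glycerol. There *GRE1* was at 314596 and 267825, *MLS1* at 81235 and 70551, and *ANS1* at 15.5 and 38.4. On the other side were *MET17*, of sulfur amino acid synthesis, at 460 and 475 against 15760 and 14768 (−5.03, SE 0.09), and *IMD2*, an IMP dehydrogenase, at 247 and 195 against 7873 and 8451 (−5.21, SE 0.10). The uncharacterised YJL213W was at 54.9 and 58.9 in YPG and 3867 and 3190 in YPD at 32°C, and YKR075C at 73.5 and 116 against 3543 and 2895. The seripauperin genes *PAU10* and *PAU6*, members of a family of near-identical copies, were listed at 0 in both YPG libraries and at 81.7 and 79.7, and 32.1 and 36.6, in YPD at 32°C. YDL085C-A was at 4.39 and 0 against 71.9 and 61.0. In YPD at 24°C all of these genes that fell, except *IMD2*, were lower than in YPD at 32°C. There *PAU10* was at 3.97 and 7.99, *PAU6* at 0.991 and 0, YJL213W at 298 and 284 and *MET17* at 1609 and 1707. *IMD2* was at 10884 and 10996 there.

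Markers of other cell states took small shares of the scaled counts, though single members differed widely between the media. Of 15 tested haploid-specific and mating type genes 6 were higher and none lower, with a median of 0.43 and a range of −0.24 to 4.06. With the median-of-ratios scaling 10 were higher. Their sum was between 5140 and 5146 in YPG and between 4051 and 4458 in YPD, 0.0367% and 0.0304% of the scaled counts. *GPA1*, of the mating pathway, was at 472 and 526 against 180 and 155 (1.57), and the pheromone receptors *STE2* and *STE3* did not pass the threshold. *MFA1* and *MFA2* were listed at 0. Of 20 meiosis and sporulation genes 9 were higher and 5 lower, with a median of 0.39 and a range of −1.34 to 2. The master inducer *IME1* was at 323 and 275 against 181 and 162 (0.80), *NDT80*, which drives the middle phase, was at 497 and 434 against 547 and 483, and *SPO11* and *HOP1* fell with −1.10 and −1.34. The sum over this list was 4402 to 4585 in YPG and 3636 to 4111 in YPD.

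Position and length were related to the differences to a small degree. Of the 182 tested genes within 20 kb of a chromosome end, 33 (18.1%) were higher and 73 (40.1%) lower in YPG, with a median of −0.33, against 28.2% and 37.7% of the other 5456 annotated nuclear genes, with a median of −0.10. By sixths of gene length, the median was −0.29 for genes of 171 to 627 bases and −0.04 for those of 2349 to 14733 bases.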

How the data were processed

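RNA of 12 BY4743 libraries was sequenced, of which the 2 of YPG at 30°C and the 2 of YPD at 32°C were compared here and the 2 of YPD at 24°C were set beside them. The authors aligned the reads with Hisat2, sorted the alignments by SAMtools 1.9, and made gene values by cuffquant and then cuffnorm. The deposited table called counts holds a signal, read counts scaled by the authors between libraries, and a second deposited table holds FPKM values. The scaled counts are not whole numbers, and 78.7% to 81.5% of the values between 0.5 and 20 were whole multiples of 1 step per library within 0.01, so a count test was not used. The implied depth of 1.238e+07 to 1.494e+07 fragments limits the precision of low values.

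Values were taken as log2(value + 1) and fitted with limma 3.58.1 (R 4.3.3, eBayes with a variance trend) on all 12 libraries with the environment as the factor. P-values were two-sided and adjusted by Benjamini-Hochberg over the 6012 genes whose mean scaled count reached 10, with a threshold of 0.05. Each SE is that of the fitted log2 difference. With 2 replicates per group, p-values measure the spread between separately propagated cultures. Summaries and plots used Python 3.11.15, pandas 2.3.3, numpy 2.4.6 and matplotlib 3.10.9. Upstream windows and coordinates came from the RefSeq R64 genome, and 6088 of the 7127 identifiers matched its annotation.

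Members and gene lists were chosen with earlier results of these data known. Named genes were the 10 with the largest called differences in each direction, members of lists of 26 or fewer genes, the 4 largest rises and falls and any called member against the majority in longer lists, and a set of regulators and isozymes. The lists and genes in the other observations, the most abundant genes and the Rox1 search were chosen after the values were seen. Alternatives changed the pseudocount, filter, scaling, table, variance trend, libraries in the fit, glucose side and replicate block.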

Additional observations from a re-analysis of the deposited data

How the results depend on the processing

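The count of called genes (3840) stayed within 1.5 times under every alternative run, from 3275 to 3462 when 1 library was left out and up to 4178 when limma was fitted on the 4 libraries alone, and the count of 2-fold differences ranged from 1206 to 1375. Adding the replicate number as a block gave 3881 called genes, 3828 of them shared. Same-numbered libraries did not deviate together (r of −0.038 over 2 pairs), and of the 413 named genes *SOD1* lost and *FAA2* gained a call under the block. The FPKM table gave 3827. With the median-of-ratios scaling 7 named genes lost and 9 gained a call, and leaving out 1 library ended the call of 13 to 21. With YPD at 24°C as the glucose side 2430 genes were higher and 1489 lower, with a median of 0.16, and 23 named genes had the opposite sign, with log2 differences of 0.38 for *MPC2*, −0.0372 for *CIT3*, 0.46 for *YMC1*, 0.40 for *TDH1*, 0.0226 for *PDC5*, −0.0605 for *HXT7*, 0.0654 for *PIP2*, 0.24 for *FOX2*, 1.75 for *TSA2*, 0.20 for *AHP1*, 0.22 for *TRX2*, 0.54 for *NTH1*, 1.3 for *PHO89*, 0.0168 for *MRS4*, 0.42 for *DMC1*, −0.73 for *SPS4*, −0.14 for *HO*, −0.60 for *RPL1A*, −0.11 for *RPL4B*, 0.49 for *UGA1*, 0.49 for *MET14*, 0.14 for *LYS5* and 0.0328 for *CCW12*. With YPD at 24°C as the glucose side, 2959 of the 3840 called genes were called again, 152 of these in the opposite direction. Of the 1298 genes called at 2-fold or more, 854 were so called again. The stable totals therefore hide a change of members with the glucose side. Interpolating the glucose side to 30°C gave 3937 called genes and reversed *TSA2* (0.0245). The cause of these reversals was not tested. With 2 libraries a group and a difference in temperature, small differences rest on few measurements.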

Other observations

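Genes outside carbon metabolism were grouped after their values had been seen, and their counts are given as a description. Of 30 genes of nitrogen uptake and breakdown, 26 were higher in YPG and 2 lower, with a median log2 difference of 1.6, and 28 were higher with YPD at 24°C as the glucose side. *GAP1*, the general amino acid permease, was at 18829 and 19470 in YPG and 856 and 1010 in YPD at 32°C (4.36, SE 0.15). *PUT1*, the first enzyme of proline breakdown, was at 8900 and 8261 against 229 and 208 (5.29, SE 0.17). The permease *PUT4*, among the largest differences of the comparison, stood beside it. *DUR12*, urea amidolyase, and the arginase *CAR1* differed by 4.66 and 3.35, and the ammonium permeases *MEP1* and *MEP2* by 1.99 and 2.78. *DAL5*, the allantoate permease, fell by 0.55 on the log2 scale. The list took 2.14% of the scaled counts in both YPG libraries and 0.621% and 0.713% in YPD at 32°C.

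Amino acid and purine synthesis did not move as a whole. Of 27 genes of sulfate assimilation and methionine synthesis, 21 were lower in YPG and 2 higher, but with YPD at 24°C as the glucose side 11 were lower and 11 higher. *MET6*, methionine synthase, was at 3302 and 3412 in YPG and 26755 and 24989 in YPD at 32°C (−2.95, SE 0.15). Of 15 genes of purine synthesis 13 were lower, led after *IMD2* by *ADE17* (−3.41), while *GUA1*, of the guanine branch, rose by 1.06. Of 7 genes of histidine synthesis 6 were lower, with *HIS4* at −3.28, but with YPD at 24°C as the glucose side 3 were lower and 1 higher, with a median of −0.19 in place of −1.63. Lysine synthesis was higher in 8 of 9 genes, and *LYS20*, homocitrate synthase, rose by 2.61 on the log2 scale.

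Of 33 genes for the proteasome and its regulator, 32 were lower, with a median of −0.68, and the 1 that rose was the gene of the regulator *RPN4* (0.86, SE 0.10). Of 24 genes of ergosterol synthesis 16 were lower and 6 higher, with a median of −0.94, and *ERG9* was at −2.36 and *ERG3* at 1.16. Of 10 histone genes 8 were lower and none higher, with a median of −0.95, and *HTA2* was at −2.29. Of 37 autophagy genes 22 were lower and 7 higher, with a median of −0.49, but with YPD at 24°C as the glucose side 13 were lower and 13 higher. Among 18 genes of the cell wall and the seripauperin family 8 were higher and 8 lower. With YPD at 24°C as the glucose side 10 were higher and 3 lower, and with a mean of at least 50 required 8 of the 11 left were higher and 3 lower. *PIR3*, a wall protein, was at 9456 and 8470 in YPG against 177 and 199 in YPD at 32°C (5.57, SE 0.11).

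Of the 10 most abundant messages per transcript length, 6 were shared by the media. *SED1*, a wall protein, stood among those of YPG at 5845 and 5316 FPKM, and *FBA1*, aldolase, among those of YPD.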
